A study of Homo sapiens with 9 samples.

Results

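The genes described here are 33 genes of DNA replication and of the passage from G1 into S phase, listed by symbol, and all 33 were found by Ensembl identifier among the 31004 genes measured. They cover the MCM2-7 helicase and its loaders, the factors that switch the helicase on, polymerases and clamp proteins of the replication fork, enzymes of nucleotide supply, the E cyclins and E2F factors, and factors that copy chromatin or guard the fork. RNA-seq was done on cells of the human line MDA-MB-468, a triple-negative breast cancer of the basal-like kind with the genotype given as wild type, after lentiviral transduction at an MOI of 10 and selection of stable lines with 1 µg/mL puromycin. All 9 libraries share the line, the transduction and the selection. The control hairpin is shNC (3 libraries), and the other libraries carry shFAM83H-AS1_1 (hairpin 1, 3 libraries) or shFAM83H-AS1_2 (hairpin 2, 3 libraries), both directed at the long noncoding RNA FAM83H-AS1, and each library was made from 2 µg of total RNA. Nothing in the labels tells separate cultures from repeat libraries of 1 culture, so p-values measure the spread between these libraries, which may be technical. Values are FPKM, in which reads are divided by gene length and by library depth. Levels of different genes compare only as far as the length used fits the transcripts made, which was not tested.

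Replication starts when the origin recognition complex, CDC6 and CDT1 load MCM2-7 onto DNA in G1. In S phase the loaded helicase is joined by CDC45 and GINS with the help of MCM10, DNA polymerase alpha-primase lays down primers, the RFC clamp loader places PCNA, and the replicative polymerases extend. Most of these genes are textbook targets of the E2F factors, which the retinoblastoma protein RB1 holds in check and cyclin E with CDK2 releases, so their transcripts are widely read as a proliferation programme in tumours. MDA-MB-468 is known to have lost RB1 and SMAD4 function. In these libraries RB1 transcripts were at 1.45 ± 0.14, 1.85 ± 0.16 and 1.61 ± 0.23 FPKM with shNC, hairpin 1 and hairpin 2 (SD, n = 3 each), and SMAD4 did not exceed 0.034 FPKM.

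Promoter sequence is shown because it is the region through which E2F factors are known to act on this group. The 10 genes shown were picked by hand. MCM2 is among them although its groups overlapped in all comparisons, and CDT1, POLE2, RRM2 and CCNE1 are not shown. RefSeq (GRCh38.p14) gave the 250 bases before the start of 30 of the 33 genes. MCM4, MCM5 and CCNE2 were not matched. The E2F words searched on both strands were TTTGGCGC, TTTCCCGC, TTTGCCGC and TTTCGCGC, and CCAAT, the letters bound by NF-Y, was searched as well. Each window below is 120 bases long, ends at the base before the start, except that it was moved upstream for MCM6 and POLA1 to take in their E2F words, and is written 5′ to 3′ on the strand of the gene, with complete E2F words, CCAAT, the reverse ATTGG and CACGTG in capitals.
MCM6, chr2:135876499-135876618, minus strand: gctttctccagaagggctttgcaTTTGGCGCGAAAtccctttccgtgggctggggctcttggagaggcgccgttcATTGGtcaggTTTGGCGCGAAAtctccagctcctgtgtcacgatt
RFC3, chr13:33818029-33818148, plus strand: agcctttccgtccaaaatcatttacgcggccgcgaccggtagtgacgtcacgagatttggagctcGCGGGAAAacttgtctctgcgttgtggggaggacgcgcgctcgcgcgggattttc
POLA1, chrX:24693725-24693844, plus strand: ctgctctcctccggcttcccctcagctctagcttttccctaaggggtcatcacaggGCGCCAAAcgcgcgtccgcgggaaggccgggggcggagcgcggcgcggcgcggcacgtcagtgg
E2F1, chr20:33686386-33686505, minus strand: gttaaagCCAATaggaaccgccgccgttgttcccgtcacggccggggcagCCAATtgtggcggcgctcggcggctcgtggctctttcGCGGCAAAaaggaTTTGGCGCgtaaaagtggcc
MCM10, chr10:13161438-13161557, plus strand: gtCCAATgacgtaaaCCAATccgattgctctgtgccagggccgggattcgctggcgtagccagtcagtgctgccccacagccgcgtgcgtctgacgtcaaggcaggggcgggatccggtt
TK1, chr17:78187205-78187324, minus strand: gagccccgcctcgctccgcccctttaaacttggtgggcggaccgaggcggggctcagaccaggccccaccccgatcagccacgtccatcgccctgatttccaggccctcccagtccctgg
CDC6, chr17:40287759-40287878, plus strand: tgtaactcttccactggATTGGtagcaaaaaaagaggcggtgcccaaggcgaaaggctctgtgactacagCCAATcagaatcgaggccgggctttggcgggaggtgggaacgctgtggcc
MCM2, chr3:127598291-127598410, plus strand: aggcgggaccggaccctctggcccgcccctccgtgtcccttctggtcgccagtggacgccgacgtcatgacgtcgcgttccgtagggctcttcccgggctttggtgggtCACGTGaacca
CLSPN, chr1:35769979-35770098, minus strand: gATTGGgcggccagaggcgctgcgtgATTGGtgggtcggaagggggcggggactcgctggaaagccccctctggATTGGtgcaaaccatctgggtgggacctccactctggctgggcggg
PRIM1, chr12:56752324-56752443, minus strand: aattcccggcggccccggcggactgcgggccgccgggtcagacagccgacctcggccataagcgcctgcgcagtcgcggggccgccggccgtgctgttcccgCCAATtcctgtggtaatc

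The MCM6 window holds a 12-base run, TTTGGCGCGAAA, in 2 places, at each of which 2 of the searched words overlap on opposite strands. RFC3 and POLA1 hold 1 word each, both on the reverse strand, E2F1 holds 2, and MCM10, TK1, CDC6, MCM2, CLSPN and PRIM1 hold none in these windows. An E2F word stood in the 250 bases before the start of 13 of the 30 matched genes (43.3%) and in 761 of 27303 promoters of the same length (2.79%). CCAAT stood in 18 of the 30 (60%) and in 33.04% of all promoters. CACGTG, the letters bound by MYC and MAX, stood in 4 of the 30 (13.3%) and in 6.49% of all. Further lists treated below were other replication factors, mitosis and G2/M genes, and RB, E2F and G1 regulators. CCAAT stood in 53.3%, 71.4% and 28% of their matched promoters, in this order. CACGTG stood in 8.89%, 19.0% and 12%, and an E2F word in 13.3%, 4.76% and 16%. The 33 genes were listed for their role in S phase, so their shares describe the list. A match is a match of letters only, and no match says only that these letters are not in the window. Near spellings were not searched. TTTGGCGG, which differs from TTTGGCGC in its last letter, stands in the CDC6 window, and CDC6 is counted below among the genes without a word. The 13 genes with an E2F word had a median log2 change of -0.15 with hairpin 1 (10 of 13 below 0), and the 17 without had -0.28 (14 of 17 below 0). Without replicate 3 of hairpin 1 these medians were -0.09 (8 of 13 below 0) and -0.12 (13 of 17 below 0). With hairpin 2 the medians were 0.02 (6 of 13 below 0) and -0.12 (10 of 17 below 0).

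The libraries held 15264476 to 18107134 gene reads. Across genes, Pearson's r of the log2 values was 0.979 to 0.988 between replicates, but 0.941 and 0.950 for replicate 3 of hairpin 1, so log2 changes with hairpin 1 are also given without this library. It scored 61.2 on the first principal component (53.5% of the variance), where the other 8 lay between -24.3 and 5.66. FAM83H-AS1 itself was at 16.5 ± 1.98 FPKM with shNC, 5.95 ± 1.27 with hairpin 1 and 7.98 ± 0.55 with hairpin 2 (SD, n = 3), and limma's Benjamini-Hochberg adjusted p was 0.00637 for hairpin 1 and 0.142 for hairpin 2. Of 11 markers listed for basal-like epithelium, 1, KRT6A, stayed under 1 FPKM in every library. EGFR averaged 7.73, KRT5 88.8, KRT6B 101 and EPCAM 160 FPKM over the 9 libraries. Of 5 hormone receptor and luminal markers listed, 3 were measured. GATA3 averaged 11.9 FPKM, above EGFR, FOXA1 3.21 and ESR1 0.18, so the luminal markers were not all absent. Leukocyte markers summed to at most 0.074 FPKM. The 4 measured of 5 markers of fibroblasts and endothelium summed to 1.12 to 1.73 FPKM with shNC, 2.01 to 3.26 with hairpin 1 and 1.81 to 3.14 with hairpin 2, mostly COL1A1 and PECAM1, and their part in the results was not tested.

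All 33 genes passed the filter of at least 1 FPKM in at least 3 libraries and were tested with limma on log2(FPKM + 1) in a fit of 11875 genes. At an adjusted p under 0.05 none of the 33 was called with hairpin 1, where 1.57% of all genes were called. None was called with hairpin 2 (background 0.0253%) and none between the hairpins (background 0.0926%), and voom on the recovered reads also called none of the 33 in these comparisons. The lowest adjusted p among the 33 was 0.0857 with hairpin 1, 0.504 with hairpin 2 and 0.530 between the hairpins. At an unadjusted p under 0.05 there were 2 higher and 10 lower genes with hairpin 1, which is 36.4% of the 33 against 25.3% of all genes. With hairpin 2 there were 2 higher and 1 lower (9.09% against 6.68%), and between the hairpins 3 were higher with hairpin 2 and 0 lower (9.09% against 8%). The fit pooled the spread of all 3 groups, so SEs and p-values for hairpin 2 against shNC also carry replicate 3 of hairpin 1. Without replicate 3 of hairpin 1 limma again called none of the 33 (background 1.76% with hairpin 1, 0.354% with hairpin 2 and 0.143% between the hairpins). At an unadjusted p under 0.05 that fit gave 2 higher and 5 lower of the 33 with hairpin 1 (17.8% of all genes), 3 higher and 4 lower with hairpin 2 (15.5% of all genes), and 2 higher and 0 lower between the hairpins (6.95% of all genes).

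With hairpin 1 most of the 33 lay below their shNC level. Their median log2 change was -0.26, with 26 of 33 below 0 (78.8%), where all genes had a median of -0.08 and 57.9% below 0. The median was -0.12 with the GC trend removed (25 of 33 below 0; all genes -0.0036). With library weights it was -0.14 (22 below 0; all genes -0.0054). After median or TMM scaling of the libraries 22 of the 33 were below 0. Their medians were then -0.18 and -0.21, where all genes had 0.0037 and -0.03. With hairpin 2 the median was -0.08, with 18 of 33 below 0 (54.5%), where all genes had -0.0092 and 51.8%. Leaving out replicate 3 of shNC or of hairpin 2 turned the median of the 33 to 0.0011 or 0.03 (all genes 0.0030 or -0.01). Hairpin 2 against hairpin 1 gave a median of 0.18 and 3 of 33 below 0 (9.09%), where all genes had 0.06 and 39.4%. Median scaling left 7 of the 33 below 0 in this comparison, with a median of 0.12 (all genes 0.00043). Without replicate 3 of hairpin 1 the median with hairpin 1 was -0.10 (23 of 33 below 0; all genes -0.0042 and 50.7%) and that between the hairpins 0.05 (13 below 0; all genes -0.01 and 52.4%). Both comparisons against shNC use the same 3 control libraries.

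**Figure D1:**
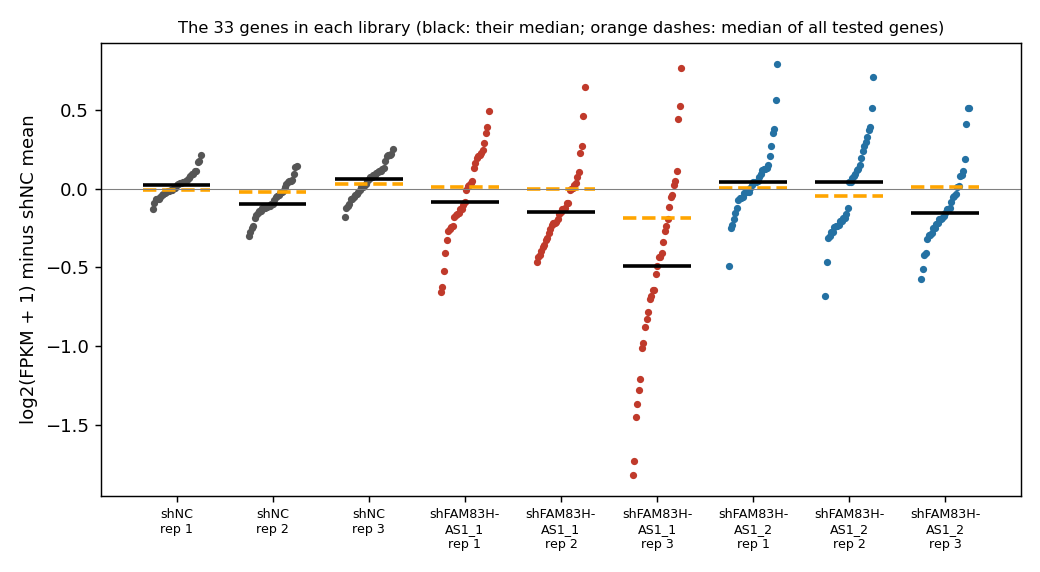
Difference of log2(FPKM + 1) from the shNC mean for the 33 genes (points, sorted) in each of the 9 libraries, with their median (black bar) and the median of all 11875 tested genes (orange dashes). Replicate 3 of hairpin 1 has the lowest median of the 33, -0.49, with 27 of 33 genes below the shNC mean.

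Seen library by library, replicate 3 of hairpin 1 was the lowest. The median of the 33 relative to the shNC mean was -0.08, -0.15 and -0.49 in replicates 1, 2 and 3 of hairpin 1. It was 0.04, 0.04 and -0.15 in the hairpin 2 libraries and 0.02, -0.10 and 0.06 in the shNC libraries themselves. All genes had -0.19 in replicate 3 of hairpin 1 and between -0.04 and 0.03 in the other 8 libraries. RNA from fewer cycling cells and less RNA per cell cannot be told apart in bulk libraries. Whether the low values in replicate 3 of hairpin 1 are technical was not tested.

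Transcripts of the GC-poor genes among the 33 sat lower than those of the GC-rich ones in both comparisons, as they did among all genes. Spearman's rho between the log2 change and transcript GC content was 0.42 with hairpin 1 and 0.48 with hairpin 2 over the 33 genes, and 0.45 and 0.42 over the 11835 genes with a GC value. Without replicate 3 of hairpin 1 it was 0.40 over the 33 and 0.24 over all. The genes share their libraries and these values are descriptions. The 33 had a median GC content of 48.5% (38.0% to 65.3%) and all genes 50.2%. GC trends of single libraries ran from a rho of -0.46 to 0.66. Fits with the GC trend removed are given below where they make a call.

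**Figure D2:**
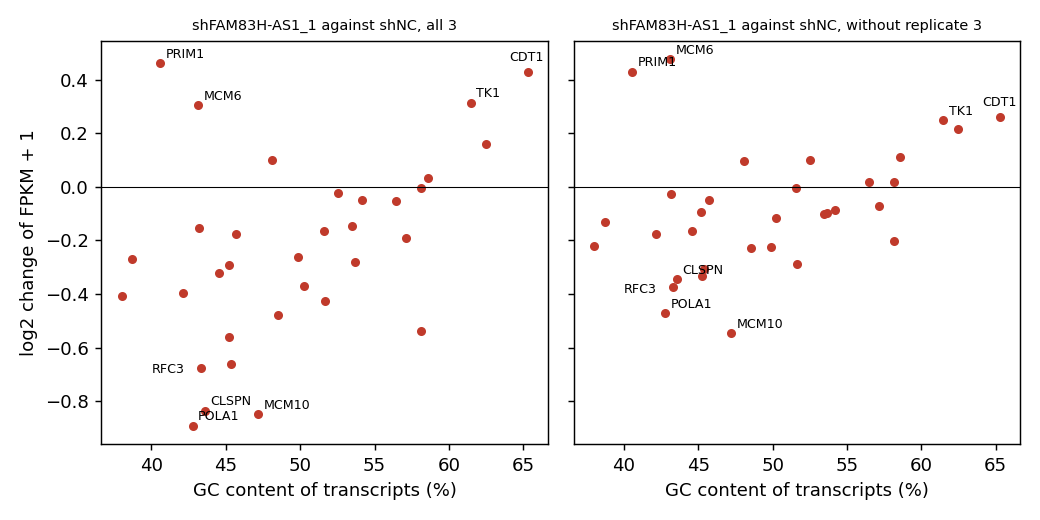
Log2 change of FPKM + 1 for hairpin 1 against shNC (vertical axis) by GC content of the transcripts in percent (horizontal axis) for the 33 genes, with all 3 hairpin 1 libraries (left) and without replicate 3 (right). CDT1 and TK1, at 65.3% and 61.5% GC, lie high, POLA1, CLSPN, RFC3 and MCM10 lie low, and MCM6 and PRIM1, at 43.1% and 40.6% GC, lie high among the GC-poor genes.

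In shNC cells the genes spanned PCNA at 189 ± 16.6 FPKM to CCNE2 at 1.04 ± 0.26 FPKM (SD, n = 3). MCM7 (167 ± 5.46) and TK1 (126 ± 21.9) followed, and the ranges of mean ± SD overlapped between PCNA and MCM7 but not between MCM7 and TK1. FEN1 (75.9 ± 3.03) and MCM3 (71.2 ± 2.06) overlapped and came next, above MCM2 (66.2 ± 2.38) and RFC3 (56.2 ± 6.61). RRM1 (48.3 ± 7.65), MCM4 (45.5 ± 3.09) and RRM2 (45.1 ± 2.43) overlapped. CHAF1A (37.7 ± 0.73) stood clear of UHRF1 (31.7 ± 1.93). From UHRF1 down through CDT1, CCNE1, GINS2, E2F1, MCM6, MCM5, RFC4 and GINS1 (21.1 ± 3.08) each neighbour overlapped the next. CDC6 (19.7 ± 3.27), CDC45, E2F2, DTL, TYMS, CHAF1B and POLA1 (10.3 ± 1.78) followed, and the lowest levels apart from CCNE2 were those of MCM10 (7.76 ± 0.47), GINS3, CLSPN, PRIM1 and POLE2 (3.24 ± 0.35).

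The first role group is origin licensing with the helicase itself, 8 genes. Its median log2 change was -0.03 with hairpin 1 (5 of 8 below 0; 0.02 without replicate 3) and 0.04 with hairpin 2 (3 of 8 below 0), and 0 of the 8 were called in either.

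MCM6, a subunit of the helicase ring (ENSG00000076003, hg38 chromosome 2, 135839626 to 135876443, minus strand), was the member with the smallest p for hairpin 2. It was at 26.8, 23.4 and 27.9 FPKM in the shNC libraries, 36.9, 36.1 and 25.3 in those of hairpin 1, and 45.7, 37.4 and 37.5 in those of hairpin 2. All hairpin 2 libraries lay above all shNC and all hairpin 1 libraries, and with hairpin 1 replicate 3 alone lay inside the shNC range. The log2 change was 0.61 with hairpin 2 (SE 0.16, limma adjusted p = 0.504) and 0.31 with hairpin 1 (SE 0.16, limma adjusted p = 0.257; 0.48 without replicate 3). In the fit without replicate 3 of hairpin 1 the hairpin 2 change of 0.61 had SE 0.11 (limma adjusted p = 0.0567). Same-numbered shNC and hairpin 2 libraries deviated together, a pairing read from these same data and given by no label. With the replicate number as a block in a fit of these 2 groups, added after seeing the data, MCM6 was called for hairpin 2 (limma adjusted p = 0.0215). That fit called 617 genes, and the block over all 9 libraries called 1 gene and not MCM6. With the GC trend removed MCM6 was called for hairpin 1 (log2 change 0.55, limma adjusted p = 0.0302), and with the replicate block in addition (0.55, limma adjusted p = 0.0305). It was also called with the GC trend removed and replicate 3 left out (0.55, limma adjusted p = 0.0340), where hairpin 2 was called as well (0.72, limma adjusted p = 0.0185). Library weights called MCM6 for hairpin 1 (0.43, limma adjusted p = 0.0183) and hairpin 2 (0.68, limma adjusted p = 0.00242). Those weights called 19.9% of all genes for hairpin 1 and 9.42% for hairpin 2.

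The other 5 subunits of the ring, which takes up all 6 in equal numbers, did not share the values of MCM6. MCM2 averaged 66.2, 66.6 and 69.7 FPKM with shNC, hairpin 1 and hairpin 2, and its groups overlapped. MCM3 was at 71.2, 73.3 and 69.1 FPKM with shNC, 82.4, 61.2 and 50.4 with hairpin 1, and 86.0, 73.4 and 59.8 with hairpin 2. The groups overlapped, and the log2 change was -0.17 with hairpin 1 (SE 0.18, limma adjusted p = 0.563; -0.0036 without replicate 3) and 0.02 with hairpin 2 (SE 0.18, limma adjusted p = 0.985). MCM4 averaged 45.5, 33.3 and 40.6 FPKM, and its hairpin 1 libraries all lay below the shNC libraries (log2 change -0.48, and -0.23 without replicate 3). MCM5 averaged 24.6, 25.5 and 28.1 FPKM with overlapping groups. MCM7, the ring gene with the highest FPKM, was at 165, 173 and 163 FPKM with shNC, 187, 153 and 146 with hairpin 1, and 165, 182 and 143 with hairpin 2. Its groups overlapped in both comparisons, with log2 changes of -0.05 (SE 0.13, limma adjusted p = 0.807; 0.02 without replicate 3 of hairpin 1) and -0.04 (SE 0.13, limma adjusted p = 0.960). Its gene overlaps that of AP4M1 on the other strand by 392 bases, and the strand setting of the counting is not given in the sources used here.

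**Figure D3:**
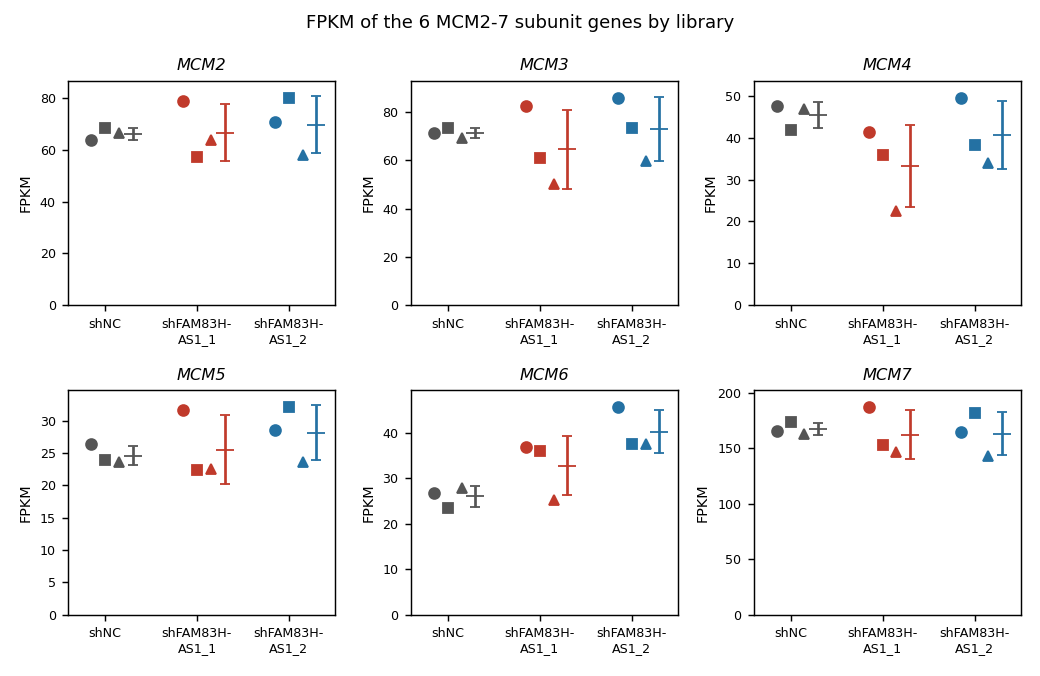
FPKM of MCM2 to MCM7 in each library (points; circle, square and triangle are replicates 1, 2 and 3), with the mean and SD of each group of 3 to the right. MCM6 is the subunit whose hairpin 2 libraries (37.4 to 45.7 FPKM) all exceed the shNC libraries (23.4 to 27.9 FPKM).

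Within the ring, MCM6 made up 6.50% ± 0.63 of the summed MCM2-7 FPKM with shNC, 8.52% ± 1.18 with hairpin 1 and 9.75% ± 1.13 with hairpin 2 (SD, n = 3), and MCM7 made up 41.7% ± 1.02, 42.3% ± 1.74 and 39.4% ± 2.12. The ratio of MCM6 to MCM4 was 0.56, 0.56 and 0.59 in the shNC libraries, 0.89, 1.00 and 1.12 with hairpin 1, and 0.92, 0.98 and 1.10 with hairpin 2. All 6 hairpin libraries lay above all shNC libraries in this ratio, replicate 3 of hairpin 1 included. The ratio of MCM6 to MCM2 was 0.34 to 0.42 with shNC, 0.47, 0.63 and 0.40 with hairpin 1, where replicate 3 lay inside the shNC range (exact permutation p = 0.3), and 0.65, 0.47 and 0.64 with hairpin 2, above all shNC libraries (exact permutation p = 0.1). For MCM6 to MCM4 an exact permutation test gave p = 0.1 for both, a value below which 3 against 3 libraries cannot go, and over the 24 such tests made on 12 pairs of members the lowest adjusted p was 0.24. In 10 of the 24 tests the groups did not overlap and p was at this smallest value. No share over other gene pairs was computed, so this count has no background. The pairs were picked from members chosen with earlier results known. MCM6 to MCM4 sets the ring gene with the highest log2 change against the one with the lowest. The permutation tests take no account of the pairing of shNC with hairpin 2, and an exact paired test of 3 pairs cannot go below 0.25.

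CDC6, a loader of the helicase, was at 17.7, 17.9 and 23.5 FPKM with shNC, 14.4, 16.2 and 9.19 with hairpin 1, and 18.7, 17.4 and 17.5 with hairpin 2. The hairpin 1 libraries lay below both other groups. The fitted log2 change was -0.56 with hairpin 1 (SE 0.19, limma adjusted p = 0.129), -0.33 without replicate 3, and -0.12 with hairpin 2 (SE 0.19, limma adjusted p = 0.924). CDT1, the other loader, is given in full although it was chosen after its values were seen. It was at 28.5, 32.4 and 27.1 FPKM with shNC, 36.0, 34.5 and 50.4 with hairpin 1, and 29.8, 38.6 and 31.2 with hairpin 2. The hairpin 1 libraries lay above those of shNC, with replicate 3 highest. The log2 change was 0.43 with hairpin 1 (SE 0.17, limma adjusted p = 0.157), 0.26 without replicate 3, and 0.17 with hairpin 2 (SE 0.17, limma adjusted p = 0.870), and library weights called hairpin 1 (0.33, limma adjusted p = 0.0466). The ratio of CDT1 to CDC6 was 1.15 to 1.82 in the shNC libraries and 2.13 to 5.49 in those of hairpin 1, while those of hairpin 2 (1.59 to 2.22) overlapped shNC (exact permutation p = 0.1 and 0.5).

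Helicase activation has 5 genes. All 5 had log2 changes below 0 with hairpin 1, with a median of -0.37, and a median of -0.12 without replicate 3 of that hairpin. With hairpin 2 the median was -0.12, with 3 of 5 below 0, and 0 of the 5 were called in either comparison.

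MCM10 (ENSG00000065328, hg38 chromosome 10, 13161554 to 13211104, plus strand), which helps to start the loaded helicase, had the smallest p of the group in both comparisons against shNC. It was at 7.38, 7.62 and 8.29 FPKM with shNC, 4.55, 5.49 and 2.20 with hairpin 1, and 6.67, 5.35 and 5.15 with hairpin 2. Every library of either hairpin lay below every shNC library. On the log2 scale the change was -0.85 with hairpin 1 (SE 0.23, limma adjusted p = 0.0857) and -0.39 with hairpin 2 (SE 0.23, limma adjusted p = 0.771), and without replicate 3 the hairpin 1 value was -0.55 (SE 0.14, limma adjusted p = 0.0768). The hairpin 2 value of -0.39 had SE 0.12 in that fit (limma adjusted p = 0.181). MCM10 was called for hairpin 1 with the GC trend removed (-0.72, limma adjusted p = 0.0485) and with the replicate block in addition (-0.72, limma adjusted p = 0.0439). It was also called with the GC trend removed and replicate 3 left out (-0.50, limma adjusted p = 0.0397), with library weights (-0.62, limma adjusted p = 0.00897) and without replicate 2 of hairpin 1 (-1.05, limma adjusted p = 0.0333).

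GINS1 and GINS2 belong to the GINS complex, which holds the active helicase together. GINS1 was at 24.4, 20.5 and 18.3 FPKM with shNC, 21.7, 18.8 and 15.3 with hairpin 1, and 23.4, 16.8 and 17.5 with hairpin 2, and the groups overlapped. Its log2 change was -0.18 with hairpin 1 (SE 0.17, limma adjusted p = 0.514; -0.05 without replicate 3) and -0.13 with hairpin 2 (SE 0.17, limma adjusted p = 0.910). GINS2 was at 29.6, 27.1 and 29.2 FPKM with shNC, 27.0, 26.8 and 29.1 with hairpin 1, and 31.4, 30.0 and 26.0 with hairpin 2. It was level in replicate 3 of hairpin 1, where most of the 33 were low, and its log2 changes were -0.05 (SE 0.11, limma adjusted p = 0.778; -0.09 without that library) and 0.02 (SE 0.11, limma adjusted p = 0.976). GINS3 averaged 6.64, 5.09 and 6.01 FPKM and CDC45, the third part of the active helicase, 17.7, 13.1 and 18.3 FPKM with shNC, hairpin 1 and hairpin 2. CDC45 had an unadjusted p of 0.025 for hairpin 1 (log2 change -0.42, limma adjusted p = 0.151; -0.29 without replicate 3), although its hairpin 1 and shNC libraries overlapped.

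DNA synthesis at the fork has 7 genes. Their median log2 change was -0.32 with hairpin 1 (6 of 7 below 0; -0.16 without replicate 3) and -0.09 with hairpin 2 (5 of 7 below 0), and 0 of the 7 were called. PRIM1 lay above 0 with both hairpins, and FEN1 with hairpin 2.

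POLA1 (ENSG00000101868, hg38 chromosome X, 24693909 to 24996986, plus strand), the catalytic subunit of DNA polymerase alpha, was at 10.5, 8.45 and 12.0 FPKM with shNC, 6.80, 7.40 and 2.38 with hairpin 1, and 9.78, 8.56 and 10.4 with hairpin 2. The hairpin 1 libraries lay below both other groups, with replicate 3 far below its replicates. The log2 change was -0.89 with hairpin 1 (SE 0.30, limma adjusted p = 0.124), -0.47 without replicate 3, and -0.09 with hairpin 2 (SE 0.30, limma adjusted p = 0.962). Hairpin 2 against hairpin 1 gave 0.80 (SE 0.30, limma adjusted p = 0.567), and library weights called hairpin 1 (-0.59, limma adjusted p = 0.0151). A pseudogene on the other strand, EEF1B2P3, with a mean of 19.5 FPKM, lies in 678 bases of the gene.

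PRIM1 (ENSG00000198056, hg38 chromosome 12, 56731296 to 56752374, minus strand), the catalytic subunit of the primase that works in one complex with POLA1, ran the other way. It was at 3.76, 2.98 and 3.70 FPKM with shNC, 4.17, 5.99 and 5.43 with hairpin 1, and 5.59, 3.72 and 5.38 with hairpin 2. The hairpin 1 libraries lay above those of shNC, and 1 hairpin 2 library lay inside the shNC range. The fitted log2 change was 0.46 with hairpin 1 (SE 0.18, limma adjusted p = 0.152; 0.43 without replicate 3) and 0.39 with hairpin 2 (SE 0.18, limma adjusted p = 0.736), and library weights called hairpin 2 (0.44, limma adjusted p = 0.0315). The ratio of PRIM1 to POLA1 was 0.31 to 0.36 in the shNC libraries, 0.61, 0.81 and 2.28 with hairpin 1, and 0.57, 0.43 and 0.52 with hairpin 2, so that neither hairpin overlapped shNC (exact permutation p = 0.1 for each, adjusted p = 0.24 over the 24 tests). PRIM1 shares 333 bases with NACA on the same strand and 214 with HSD17B6 on the other, and the assignment of reads there cannot be checked from FPKM.

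RFC3 (ENSG00000133119, hg38 chromosome 13, 33818069 to 33966558, plus strand), a small subunit of the clamp loader, is given in full although it was chosen after its values were seen. It was at 55.0, 50.3 and 63.3 FPKM with shNC, 36.0, 51.2 and 22.5 with hairpin 1, and 39.5, 34.6 and 41.5 with hairpin 2. The hairpin 2 libraries lay below those of shNC, and replicate 2 of hairpin 1 lay inside the shNC range. The log2 change was -0.53 with hairpin 2 (SE 0.24, limma adjusted p = 0.736) and -0.68 with hairpin 1 (SE 0.24, limma adjusted p = 0.138; -0.37 without replicate 3). It was called for hairpin 2 with the replicate block in the fit of these 2 groups (-0.53, limma adjusted p = 0.0208) and with library weights (-0.49, limma adjusted p = 0.0192). For hairpin 1 it was called with library weights (-0.55, limma adjusted p = 0.0137) and without replicate 2 of hairpin 1 (-0.95, limma adjusted p = 0.0333). RFC4, its partner, averaged 23.1, 18.4 and 21.8 FPKM, and the ratio of RFC3 to RFC4 was 2.21 to 2.61 with shNC and 1.63 to 1.98 with hairpin 2, while hairpin 1 (1.56 to 2.37) overlapped shNC (exact permutation p = 0.1 with hairpin 2 and 0.2 with hairpin 1).

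PCNA, the sliding clamp, was at 192, 171 and 203 FPKM with shNC, 166, 187 and 117 with hairpin 1, and 185, 163 and 162 with hairpin 2. The groups overlapped, with log2 changes of -0.29 (SE 0.17, limma adjusted p = 0.291; -0.09 without replicate 3 of hairpin 1) and -0.15 (SE 0.17, limma adjusted p = 0.890). FEN1, the nuclease that trims Okazaki fragments, was at 72.5, 78.4 and 76.7 FPKM with shNC, 77.1, 65.1 and 48.2 with hairpin 1, and 82.6, 84.2 and 73.2 with hairpin 2. Its groups overlapped too, with log2 changes of -0.28 (SE 0.16, limma adjusted p = 0.286; -0.10 without that library) and 0.07 (SE 0.16, limma adjusted p = 0.945). FEN1 shares 4259 bases with FADS2 on the same strand (mean 0.52 FPKM), and the assignment of reads there cannot be checked from FPKM. POLE2, the accessory subunit of polymerase epsilon, averaged 3.24, 2.24 and 2.62 FPKM, and all 6 hairpin libraries (1.46 to 2.86) lay below the shNC libraries (2.93 to 3.62).

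**Figure D4:**
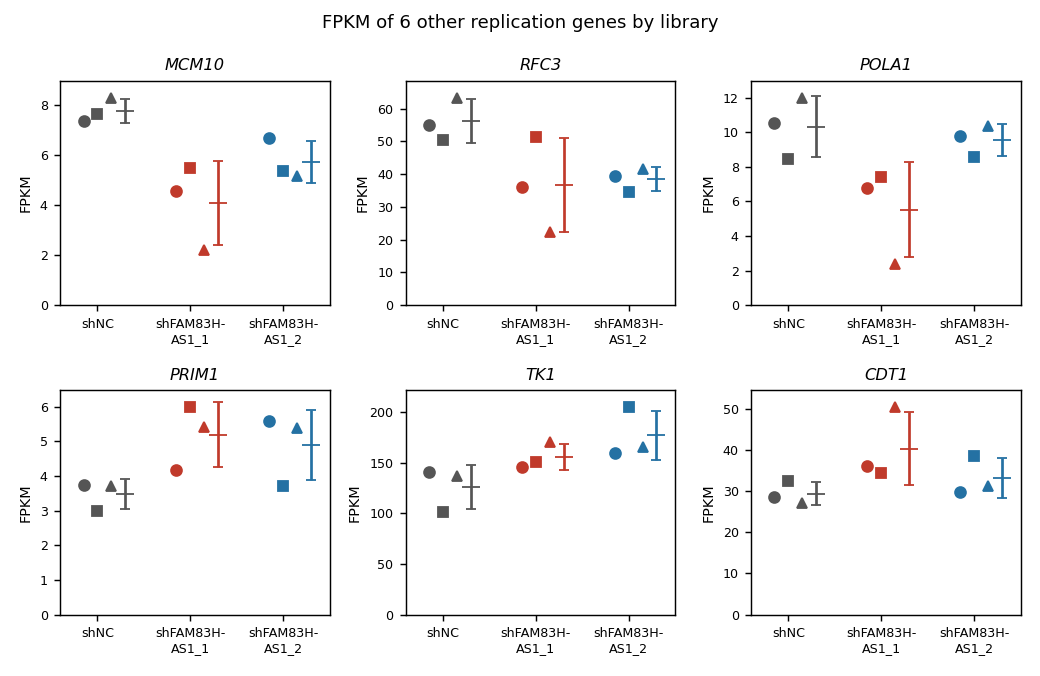
FPKM of MCM10, RFC3, POLA1, PRIM1, TK1 and CDT1 in each library (points; circle, square and triangle are replicates 1, 2 and 3), with the mean and SD of each group of 3 to the right. Replicate 3 of hairpin 1 is the lowest library for MCM10 (2.20 FPKM), RFC3 (22.5 FPKM) and POLA1 (2.38 FPKM) and the highest for CDT1 (50.4 FPKM).

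Nucleotide supply has 4 genes, with median log2 changes of -0.09 with hairpin 1 (0.04 without replicate 3) and 0.01 with hairpin 2 and 0 called. TK1, which salvages thymidine, was at 141, 101 and 137 FPKM with shNC, 146, 151 and 170 with hairpin 1, and 160, 205 and 166 with hairpin 2. All hairpin libraries lay above all shNC libraries, by a narrow margin in replicate 1 of hairpin 1. On the log2 scale the change was 0.49 with hairpin 2 (SE 0.15, limma adjusted p = 0.586) and 0.31 with hairpin 1 (SE 0.15, limma adjusted p = 0.230; 0.25 without replicate 3). RRM2, the regulatory subunit of ribonucleotide reductase, stood on the other side, at 47.8, 44.7 and 43.0 FPKM with shNC, 37.9, 34.7 and 16.9 with hairpin 1, and 42.9, 36.2 and 30.0 with hairpin 2. All hairpin libraries lay below all shNC libraries, replicate 1 of hairpin 2 only narrowly. The log2 change was -0.66 with hairpin 1 (SE 0.26, limma adjusted p = 0.163), -0.31 without replicate 3, and -0.32 with hairpin 2 (SE 0.26, limma adjusted p = 0.845). Its pseudogenes RRM2P2 and RRM2P3 did not exceed 0.169 FPKM in any library. RRM1, the large subunit of the same enzyme, was at 48.6, 40.5 and 55.8 FPKM with shNC, 42.8, 51.5 and 35.8 with hairpin 1, and 49.5, 40.4 and 41.8 with hairpin 2, with overlapping groups and log2 changes of -0.15 (SE 0.16, limma adjusted p = 0.546; -0.03 without replicate 3 of hairpin 1) and -0.13 (SE 0.16, limma adjusted p = 0.909). TYMS, which makes thymidylate, averaged 12.0, 11.9 and 13.5 FPKM and shares 3261 bases with ENOSF1 on the other strand.

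The switch from G1 to S is represented by 4 genes, with median log2 changes of -0.20 with hairpin 1 (-0.12 without replicate 3) and -0.04 with hairpin 2 and 0 called. CCNE1, cyclin E1, which drives CDK2 at the switch, was at 28.4, 31.0 and 27.7 FPKM with shNC, 25.7, 23.6 and 22.7 with hairpin 1, and 24.6, 25.3 and 23.7 with hairpin 2. All 6 hairpin libraries lay below all shNC libraries, and the spread within each group was small. The fitted log2 change was -0.26 with hairpin 1 (SE 0.10, limma adjusted p = 0.165), -0.22 without replicate 3, and -0.23 with hairpin 2 (SE 0.10, limma adjusted p = 0.736). CCNE2, cyclin E2, averaged 1.04, 0.71 and 0.90 FPKM, a level that rests on as few as 28 reads in a library. E2F1, an activating E2F factor, was at 25.6, 29.1 and 24.6 FPKM with shNC, 34.9, 27.1 and 27.3 with hairpin 1, and 27.1, 33.3 and 28.0 with hairpin 2. The groups overlapped, with log2 changes of 0.16 (SE 0.14, limma adjusted p = 0.461; 0.21 without replicate 3 of hairpin 1) and 0.15 (SE 0.14, limma adjusted p = 0.868), and library weights called hairpin 1 (0.34, limma adjusted p = 0.0423). E2F2, another activating factor, averaged 12.2, 11.0 and 12.6 FPKM, and the ratio of E2F1 to E2F2 was 2.03 to 2.37 with shNC and 2.64 to 2.79 with hairpin 1 (exact permutation p = 0.1, adjusted p = 0.24), while hairpin 2 (2.22 to 2.44) overlapped shNC (exact permutation p = 0.2).

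Chromatin copying and fork control has 5 genes, with median log2 changes of -0.40 with hairpin 1 (-0.18 without replicate 3) and -0.08 with hairpin 2 and 0 called. CLSPN, claspin, which links a stalled fork to the checkpoint kinase CHK1, was at 5.58, 5.18 and 6.09 FPKM with shNC, 4.26, 4.14 and 0.87 with hairpin 1, and 5.07, 4.73 and 4.85 with hairpin 2. All 6 hairpin libraries lay below those of shNC, and replicate 3 of hairpin 1, with 134 reads, lay far below the rest. The log2 change was -0.84 with hairpin 1 (SE 0.33, limma adjusted p = 0.164), -0.34 without replicate 3, and -0.17 with hairpin 2 (SE 0.33, limma adjusted p = 0.940). In the fit without replicate 3 of hairpin 1 the hairpin 2 SE was 0.10 (limma adjusted p = 0.467). UHRF1, which brings the maintenance methyltransferase to new DNA, was at 32.6, 29.5 and 33.1 FPKM with shNC, 31.5, 23.9 and 13.1 with hairpin 1, and 31.2, 33.9 and 25.6 with hairpin 2. Its groups overlapped, with log2 changes of -0.54 (SE 0.25, limma adjusted p = 0.215; -0.20 without replicate 3) and -0.08 (SE 0.25, limma adjusted p = 0.963).

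CHAF1A and CHAF1B are subunits of CAF-1, which deposits histones behind the fork. CHAF1A was at 37.4, 38.5 and 37.1 FPKM with shNC, 38.1, 33.6 and 27.6 with hairpin 1, and 38.9, 38.9 and 36.8 with hairpin 2, with log2 changes of -0.19 (SE 0.13, limma adjusted p = 0.341; -0.07 without replicate 3 of hairpin 1) and 0.02 (SE 0.13, limma adjusted p = 0.983). CHAF1B was at 13.2, 11.1 and 10.6 FPKM with shNC, 13.4, 11.6 and 12.6 with hairpin 1, and 15.4, 13.9 and 11.7 with hairpin 2, with log2 changes of 0.10 (SE 0.14, limma adjusted p = 0.637; 0.10 without that library) and 0.21 (SE 0.14, limma adjusted p = 0.794). The groups of both genes overlapped. DTL, the adaptor of the ligase that removes CDT1 in S phase, averaged 12.1, 9.08 and 10.3 FPKM, with overlapping groups.

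**Figure D5:**
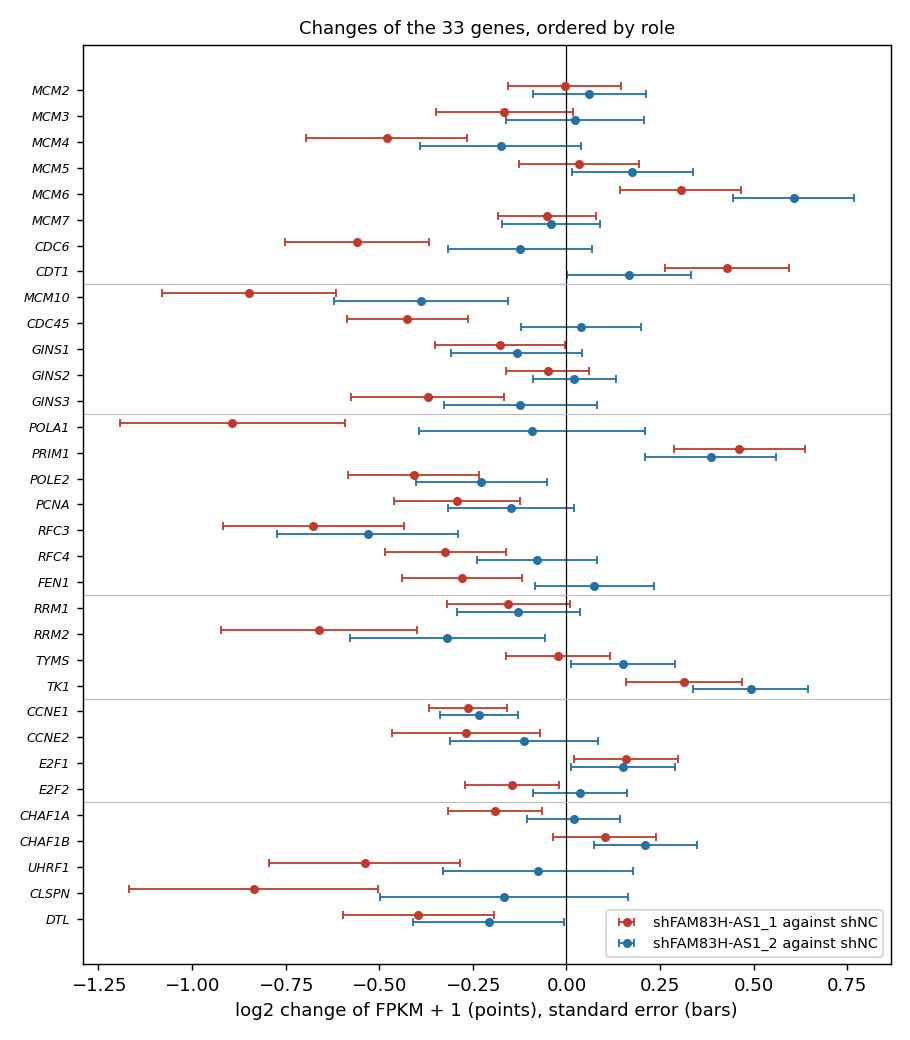
Log2 change of FPKM + 1 (points) with its standard error (bars) for the 33 genes in order of role, hairpin 1 and hairpin 2 each against shNC. The values run from -0.89 (POLA1) to 0.46 (PRIM1) with hairpin 1 and from -0.53 (RFC3) to 0.61 (MCM6) with hairpin 2.

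Counting complete separation of the groups, 3 genes lay wholly above shNC with hairpin 1 (CDT1, PRIM1 and TK1; 9.09% of the 33, 14.4% of all genes) and 8 wholly below (MCM4, CDC6, MCM10, POLA1, POLE2, RRM2, CCNE1 and CLSPN; 24.2%, 15.3% of all genes). With hairpin 2 MCM6 and TK1 lay wholly above (6.06%, 11.1% of all genes), and MCM10, POLE2, RFC3, RRM2, CCNE1 and CLSPN wholly below (18.2%, 10.9% of all genes). Between the hairpins MCM6, CDC6, POLA1 and CLSPN lay wholly higher with hairpin 2 (12.1%, 6.13% of all genes) and 0 wholly lower (5.88% of all genes). The unadjusted p under 0.05 between the hairpins belonged to POLA1, CDC45 (log2 change 0.46, limma adjusted p = 0.530) and CDC6 (0.44, limma adjusted p = 0.619). Without replicate 3 of hairpin 1 POLA1 had 0.38, CDC45 0.33 and CDC6 0.21 in this comparison.

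Within pairs of shNC and hairpin 2 libraries with the same number, 6 of the 33 genes were higher with hairpin 2 in all 3 pairs (18.2%, 22.6% of all genes). These were MCM6 and TK1 and, with overlapping groups, CDT1, PRIM1, E2F1 and CHAF1B. Another 9 were lower in all 3 pairs (27.3%, 26.3% of all genes), the 6 genes that lay wholly below and, with overlapping groups, GINS1, PCNA and CCNE2. Of the 33, MCM6 and RFC3 alone were called in the fit of these 2 groups with the replicate block.

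Over all 24 alternative fits 26 of the 33 genes were never called in any comparison, and the other 7 (MCM6, MCM10, RFC3, POLA1, PRIM1, CDT1 and E2F1) were called in the fits named above. POLA1, PRIM1, CDT1 and E2F1 were called with library weights alone, which called 19.9% of all genes for hairpin 1 and 9.42% for hairpin 2.

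The rest of the replication machinery, 57 further genes that include ORC, polymerases delta and epsilon, RPA and the histone chaperones, had a similar median log2 change but no larger share of low p-values than all genes. Of 54 tested, 0 were called with either hairpin, the median log2 change was -0.28 with hairpin 1 (45 of 54 below 0; -0.08 without replicate 3) and -0.12 with hairpin 2 (35 of 54 below 0), and at an unadjusted p under 0.05 there were 1 higher and 11 lower with hairpin 1 (22.2% against 25.3% of all genes). Wholly below shNC lay 14 with hairpin 1 (25.9%, 15.3% of all genes) and 11 with hairpin 2 (20.4%, 10.9% of all genes). Wholly above lay 2 with hairpin 1 (3.7%, 14.4% of all genes) and 3 with hairpin 2 (5.56%, 11.1% of all genes). CTPS1, which makes CTP, averaged 26.9, 15.6 and 21.0 FPKM (log2 change -0.79 with hairpin 1, limma adjusted p = 0.0896; -0.51 without replicate 3). SLBP, which binds the stem-loop of histone mRNAs, averaged 61.8, 43.7 and 55.6 FPKM (-0.51, limma adjusted p = 0.0828; -0.39 without replicate 3). RNASEH2C, a subunit of RNase H2, averaged 10.7, 13.7 and 13.6 FPKM (0.34, limma adjusted p = 0.148; 0.31 without replicate 3).

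Regulators upstream of these genes were likewise without a call. Of 30 tested genes of the RB, E2F and G1 control list, 0 were called with either hairpin, with medians of -0.19 with hairpin 1 (22 of 30 below 0; -0.09 without replicate 3) and -0.04 with hairpin 2 (19 of 30 below 0). At an unadjusted limma p under 0.05 there were 2 higher and 7 lower with hairpin 1 (30% against 25.3% of all genes). Wholly below shNC lay 9 with hairpin 1 (30%, 15.3% of all genes) and 6 with hairpin 2 (20%, 10.9% of all genes). Wholly above lay 1 with each hairpin (3.33%, against 14.4% and 11.1% of all genes). CDKN2C, the CDK4 and CDK6 inhibitor p18, averaged 9.06, 11.8 and 13.0 FPKM (0.47 with hairpin 2, limma adjusted p = 0.584). CDC25A, the phosphatase that activates CDK2, averaged 11.1, 6.80 and 8.92 FPKM (-0.67 with hairpin 1, limma adjusted p = 0.0880; -0.44 without replicate 3). E2F6, a repressive E2F factor, averaged 13.3, 9.14 and 9.89 FPKM (-0.53 with hairpin 1, limma adjusted p = 0.123; -0.35 without replicate 3).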

How the data were processed

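The deposited values are FPKM per gene for 9 libraries, grouped in 3 groups of 3 by the sample titles. HISAT2 2.1.0, Bowtie2 2.2.3, HTSeq 0.6.0 and the build hg38 are listed in the submitters' processing notes, with no roles. The annotation release and the strand setting were not given in the sources used here. Of 31005 lines, 1 named no gene and was dropped. A table of gene names supplied 30883 symbols. GENCODE on hg38 supplied GC content and, where it had them, the missing symbols. Gene positions are those deposited with the FPKM values. Small FPKM values come in steps of 1 read, which gave whole reads for 31004 of 31004 genes within 0.0001 reads. These reads served voom and the read numbers only.

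The test was limma 3.58.1 (R 4.3.3) on log2(FPKM + 1), computed here from the deposited FPKM. It fitted 1 mean for each group over 9 libraries, with a mean-variance trend and 1 spread per gene pooled over the 3 groups. The filter asked for 1 FPKM or more in 3 or more libraries, which kept 11875 genes. Tests were two-sided, with Benjamini-Hochberg adjustment over these genes and a threshold of 0.05. A fold change on this scale understates that of low genes. The code was tested on simulated data. Ratios of 2 members were compared by exact two-sided permutation tests in scipy 1.17.1 (Python 3.11.15), which also searched the promoters.

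The members and all gene lists were chosen with earlier results of these data known. Every member is named with a level. Full values are given for the 2 highest members of each role group and the one with the smallest p in each comparison against shNC, and from each other list for the 3 genes with the smallest p for both hairpins together. Pairing was checked from the deviations around group means. For the 3 replicate numbers their correlations were 0.20, 0.35 and 0.39 between shNC and hairpin 2, so the numbers were taken to pair those groups (no label gives a batch). With hairpin 1 they were 0.18, -0.39 and -0.25 against shNC and 0.13, -0.45 and -0.24 against hairpin 2, so these were not taken as pairs. Libraries with unlike numbers also reached high values. Replicate 2 of hairpin 1 had 0.45 with replicate 3 of shNC and 0.44 with replicate 3 of hairpin 2. The alternatives were a pseudocount of 0.1, no filter or one of 5 FPKM, scaling by median, quantile or TMM, a replicate block, a fit of the 2 compared groups alone, robust variances, library weights, removal of GC trends (alone, with the block and without 1 library), voom, and leaving out each library. The block in fits of 2 groups was added after seeing the data.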

Additional observations from a re-analysis of the deposited data

How the results depend on the processing

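The median log2 change of the 33 genes kept its sign in all 24 alternatives for hairpin 1 and between the hairpins, while for hairpin 2 it was 0.0011 without shNC replicate 3, 0.03 without hairpin 2 replicate 3 and below 0 in the other alternatives (-0.13 to -0.02). Medians of the role groups crossed 0 under some alternatives. For hairpin 1 these were origin licensing (0.05 with median and 0.03 with TMM scaling, 0.14 with library weights, 0.04 and 0.02 without its replicates 2 and 3) and nucleotide supply (0.03 with the GC trend removed, 0.04 without replicate 3). For hairpin 2 all groups but helicase activation crossed 0 under at least 1 alternative. For hairpin 1 the median ranged from -0.31 to -0.10 when 1 library was left out, the weakest without its replicate 3, and was -0.12 with the GC trend removed, -0.10 with the GC trend removed and without that library, and -0.14 with library weights. All genes had medians of -0.0036 with the GC trend removed, -0.0025 without that library in addition, and -0.0054 with library weights. The number of the 33 called for hairpin 1 was 6 with library weights (19.9% of all genes) and 2 with the GC trend removed (4.6% of all genes). It was also 2 with the GC trend removed and a replicate block (6.23%), and 2 with the GC trend removed and without replicate 3 (4.13%). When 1 library was left out it was 0 to 2 (0.0758% to 8.49% of all genes). For hairpin 2 it was 3 with library weights (9.42% of all genes) and 2 with the replicate block in the fit of 2 groups (5.2%). With the GC trend removed and without replicate 3 of hairpin 1 it was 1 (0.985%). With the replicate block over 9 libraries it was 0 in each comparison, and between the hairpins 0 in all alternatives. The filter of 5 FPKM left 31 of the 33 genes.

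The number of all genes called depended more on the fit. For hairpin 1 (187) it was 30 with no filter, 92 with the replicate block, 2361 with library weights, 546 with the GC trend removed, 740 with the block in addition, 490 without replicate 3 in addition, 84 with voom, 9 in the fit of 2 groups and 0 there with the replicate block. It ranged from 9 to 1008 when 1 library was left out, and moved by over 1.5 times without any library except replicate 3 of hairpin 1 (209). For hairpin 2 (3) it was 14 with no filter, 1 with the filter of 5 FPKM, 1 with the replicate block, 1119 with library weights, 6 with the GC trend removed, 7 with the block in addition, 117 without replicate 3 of hairpin 1 in addition, 1 with voom, 33 in the fit of 2 groups and 617 there with the replicate block. It ranged from 1 to 42 when 1 library was left out, 1 without each shNC library, 6 without replicate 2 and 42 without replicate 3 of hairpin 1. Between the hairpins (11) it was 7 with a pseudocount of 0.1, 4 with the replicate block, 148 with library weights, 36 with the GC trend removed, 34 with the block in addition, 35 without replicate 3 of hairpin 1 in addition, 4 with voom, 2 in the fit of 2 groups and 0 there with the replicate block. It ranged from 3 to 17 when 1 library was left out, and moved by over 1.5 times without any library except replicate 2 of hairpin 1 (10). The cause was not tested. Depth limits mainly CCNE2, which rests on as few as 28 reads.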

Other observations

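Genes of mitosis and G2/M, which peak after the replication genes in the cell cycle, were also without a call. Of 26 tested of 27 listed, 0 were called with either hairpin in limma, and at an unadjusted p under 0.05 there were 0 higher and 1 lower with hairpin 1 (3.85% against 25.3% of all genes) and 0 in either direction with hairpin 2 (6.68% of all genes). Their median log2 change was -0.24 with hairpin 1, with 23 of 26 below 0, and 0.03 without replicate 3 of hairpin 1, with 12 of 26 below 0. With hairpin 2 it was 0.0023, with 13 of 26 below 0. Wholly below shNC lay 1 of the 26 with hairpin 1 (3.85%, 15.3% of all genes) and 0 with hairpin 2 (10.9% of all genes). Wholly above lay 0 with either hairpin (14.4% and 11.1% of all genes). In replicate 3 of hairpin 1 all 26 lay below the shNC mean, with a median of -0.74, while in replicate 2 of the same hairpin the median was 0.14 and 5 of 26 lay below. CDC25B, a phosphatase that activates CDK1, averaged 33.9, 23.3 and 32.1 FPKM with shNC, hairpin 1 and hairpin 2 (log2 change -0.53 with hairpin 1, limma adjusted p = 0.0913; -0.40 without replicate 3). CDK1, the mitotic kinase, averaged 30.0, 24.3 and 27.1 FPKM, and BIRC5, survivin, 72.8, 79.0 and 86.0 FPKM.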
